A study of Mus musculus with 9 samples.

Results

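The HOXA and MEIS1 leukemia program is a set of 10 transcription factor genes that the MLL-AF9 fusion is known to switch on or to need: Hoxa5, Hoxa6, Hoxa7, Hoxa9, Hoxa10, Meis1, Pbx3, Mef2c, Myb and Sox4. All probes that the platform annotation assigns to these symbols were taken, which gave 24 of the 45281 probes of the bead array. A probe counted as detected on an array when its detection p, the chance of such a signal from negative control beads, was under 0.05. Of the 24 probes, 15 passed this on 3 or more of the 9 arrays, and they covered 8 of the 10 genes. The other 9 probes, among them the only Hoxa6 probe and both Hoxa10 probes, were left out of the tests and are given by their signals or detection.

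The cells were MLL-AF9 leukemia stem cells of C57BL/6 mice that carried an Actin-dsRed transgene, which makes the cells fluoresce red. They were sorted from the marrow of quaternary transplant recipients as dsRed+ cells with low Hoechst dye, high c-kit, CD34 and high FcγRII. Every group carried the fusion and the dsRed transgene. The groups were a control hairpin RNA against luciferase (Luc, 3 arrays), hairpin 94 against Csnk1a1, which encodes casein kinase 1 alpha (3 arrays), and hairpin 97 against the same gene (3 arrays). Whether the 3 arrays of a hairpin stand for different mice, and how long after hairpin delivery the RNA was taken, is not in the labels, so a p-value here reflects only how these arrays vary, which may be technical. The RNA is that of whole sorted samples, in which fewer cells of a type and less RNA per cell cannot be told apart.

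HOXA proteins are homeodomain transcription factors that are active in blood stem cells and early progenitors and are shut down as myeloid cells mature. MEIS1 and PBX3 belong to another class of homeodomain proteins and bind DNA together with HOXA9. In MLL-rearranged leukemia the fusion protein keeps the late HOXA genes and Meis1 active, and MEF2C, MYB and SOX4 act with them in self-renewal. The MLL part of the fusion binds DNA that is rich in unmethylated CG dinucleotides through its CXXC domain.

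Hoxa5, Hoxa6, Hoxa7, Hoxa9 and Hoxa10 follow each other in 1 cluster on mouse chromosome 6. The RefSeq promoter stretches of Hoxa5, Hoxa7 and Hoxa9 are shown because the signal of the first moved apart from that of the others. Each holds the 250 bases before the gene's start, 5′ to 3′, with CG dinucleotides in capitals.
Hoxa5 (GRCm38.p6, chr6:52204588-52204837, minus strand): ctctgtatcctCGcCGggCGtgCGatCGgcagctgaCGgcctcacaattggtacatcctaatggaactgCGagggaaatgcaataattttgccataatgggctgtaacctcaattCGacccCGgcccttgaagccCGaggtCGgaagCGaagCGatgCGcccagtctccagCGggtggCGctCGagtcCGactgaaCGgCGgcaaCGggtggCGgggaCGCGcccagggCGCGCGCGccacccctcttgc
Hoxa7 (GRCm38.p6, chr6:52218574-52218823, minus strand): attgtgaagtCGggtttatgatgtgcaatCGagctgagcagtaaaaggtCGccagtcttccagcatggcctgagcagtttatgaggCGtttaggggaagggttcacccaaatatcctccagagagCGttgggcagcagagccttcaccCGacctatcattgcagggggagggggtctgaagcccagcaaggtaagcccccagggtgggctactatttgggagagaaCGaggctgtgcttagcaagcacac
Hoxa9 (GRCm38.p6, chr6:52227371-52227620, minus strand): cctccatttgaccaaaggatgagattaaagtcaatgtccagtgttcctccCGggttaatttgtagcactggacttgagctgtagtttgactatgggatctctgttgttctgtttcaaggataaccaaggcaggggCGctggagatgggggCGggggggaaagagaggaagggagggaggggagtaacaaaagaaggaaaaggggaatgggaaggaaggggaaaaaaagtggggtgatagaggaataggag
The Hoxa5 stretch held 28 CG dinucleotides, the Hoxa7 stretch 7 and the Hoxa9 stretch 3. The median over 32851 RefSeq promoter stretches of the same length was 6, and 92.4% of them held fewer than Hoxa5, 53.7% fewer than Hoxa7 and 29% fewer than Hoxa9. RefSeq promoters matched 9 of the 10 members, and the Myb stretch held the most CG dinucleotides among them, with 40. A binding motif of PBX with HOX proteins (TGATNNAT) and a MEIS motif (TGACAG), searched on both strands, had no match in the 12 stretches of the members, while 7.68% and 15.9% of all stretches held them. Methylation and binding were not measured here.

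The arrays differed in brightness between the groups. A Luc array detected 9262 to 10347 probes, a hairpin 94 array 13053 to 14280 and a hairpin 97 array 12969 to 14168, and the mean signal lay at 129.3 to 131.7, 167.6 to 195.8 and 174.6 to 201.1. Its part in the comparisons with Luc was not tested beyond the alternatives given in the closing section. Log2 values here are after background correction and quantile normalization (neqc), so a change is relative to the other probes of the array. The target could not be checked, since the 1 Csnk1a1 probe was detected on 0 of the 9 arrays (detection p 0.2927 to 0.8622). Of the genes listed for the sort gate, Kit (1 of 2 tested probes), Fcgr3 and Fcgr2b (1 of 3 tested probes) were detected on every array. The tested Cd34 probe was seen with Luc on 0 of 3 arrays and with knockdown on 4 of 6. Fcgr3 encodes FcγRIII, which the stated gate does not name. In the mean of both hairpins 3 of the 7 tested probes of the listed genes were higher and 0 lower. Of all tested probes, 25% were higher and 15.2% lower. Fcgr3 was at 1.12 (limma adjusted p = 0.0003412), and 1 of the 3 calls, a Fcgr2b probe, was detected on 1 Luc array. With hairpin 97, 1 Kit probe was lower (-0.48, limma adjusted p = 0.0489), where 12.3% of all probes were lower. The summed level of the listed genes, Fcgr3 included, was 614.3 to 733.2 with Luc in linear normalized units. It was 936.9 to 989.4 with hairpin 94 and 760 to 863.9 with hairpin 97.

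**Figure D1:**
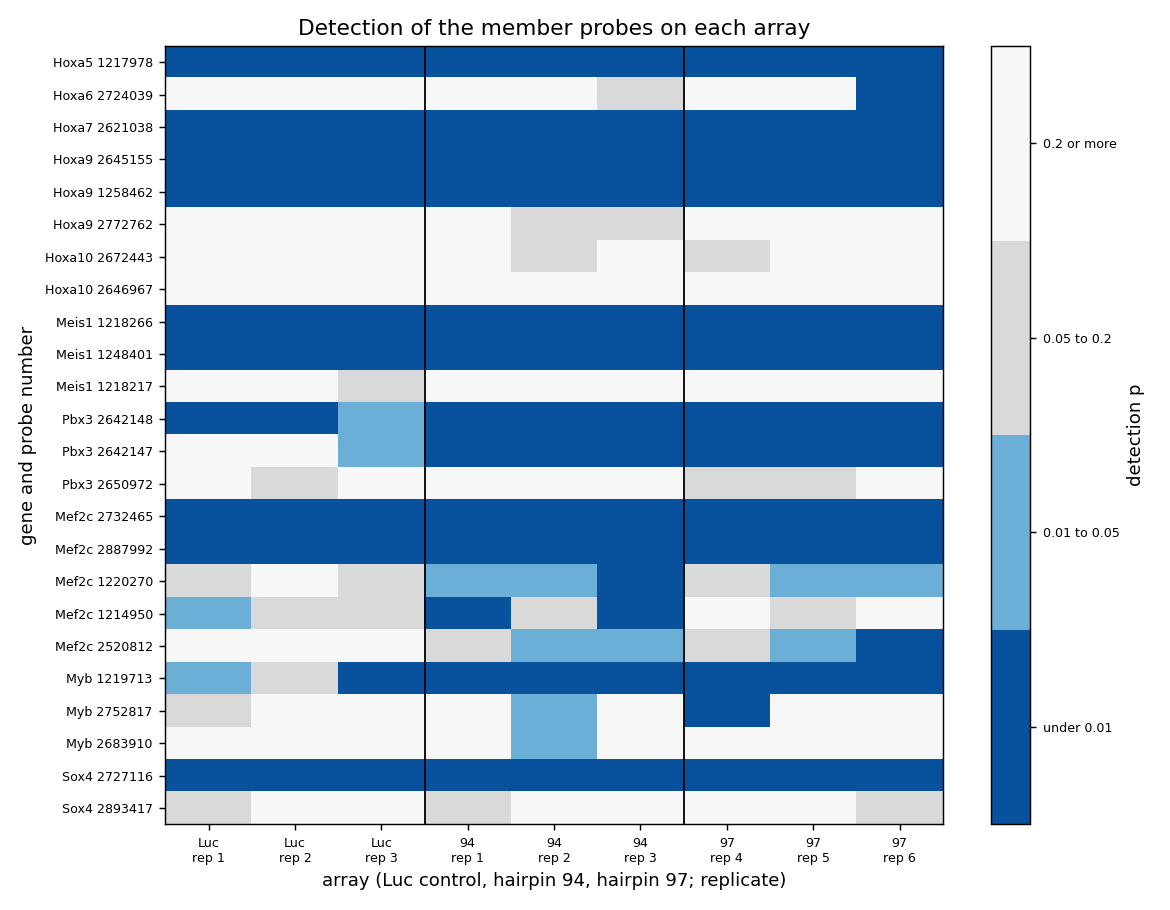
Detection p of the 24 probes (one line each, by gene and probe number) on the 9 arrays (columns, by hairpin and replicate), in 4 classes of colour. The probes of Hoxa5 and Hoxa7, 2 of Hoxa9, 2 of Meis1, 2 of Mef2c and 1 of Sox4 are under 0.01 on every array, whereas both Hoxa10 probes are above 0.05 on every array.

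The direction of the calls among the member probes depended on which probes were kept and on the scaling. In the mean of both hairpins against Luc, 4 of the 15 tested probes (26.7%) passed an adjusted p of 0.05 in limma, 2 higher and 2 lower, against 40.2% of all 13641 tested probes, of which 25% were higher and 15.2% lower. The members' share was thus below that of all probes. Hoxa5 and the brightest Mef2c probe were lower. The calls as higher were a Pbx3 probe detected on 1 Luc array and a dim Mef2c probe detected on 0, which met the detection filter through the knockdown arrays, so that filter favoured a call as higher and the split is no evidence of opposed directions. The median log2 fold change was -0.11 over the 15 probes and 0.11 over all tested probes. Of all calls 62.2% were higher, but 47.8% under cyclic loess, 22.5% with arrays scaled over the probes detected on every array and 99.9% with arrays scaled to the median of all probes, which moved the median of all tested probes to 0.00, -0.41 and 0.88. Under these scalings the member calls were 0 higher and 2 lower, 1 higher and 7 lower, and 11 higher and 0 lower. Of all tested probes, 28.9%, 68.2% and 73% passed. Among the 10 member probes detected on all 9 arrays, tested against the 6891 such probes, 3 were lower (Hoxa5, a Meis1 probe and the brightest Mef2c probe) and 0 higher, where 53.8% of those probes passed and 46% of their calls were higher. The spread allowed a median standard error of 0.1534 over all probes, and the number of arrays limits this precision.

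Hoxa5, one of the HOXA genes that are high in MLL-rearranged leukemia, gave the largest change among the members in the mean of both hairpins. Its normalized log2 values were 8.99, 9.11 and 9.01 on the Luc arrays, 7.75, 8.0 and 8.27 on the hairpin 94 arrays, and 7.79, 7.79 and 7.87 on the hairpin 97 arrays. The 6 knockdown arrays all lay below the 3 Luc arrays. Hoxa5 fell by 1.12 on the log2 scale in the mean of both hairpins (SE 0.131, limma adjusted p = 0.0002075), with -1.03 for hairpin 94 (limma adjusted p = 0.001032) and -1.22 for hairpin 97 (limma adjusted p = 0.0005018). These comparisons share the 3 Luc arrays. The call held without each array in turn, with changes of -1.19 to -1.06. With each array's number of detected probes in the fit, which differs between Luc and knockdown, the value was -1.22 and did not pass (limma adjusted p = 0.4468), as for every other probe of the array.

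The deposited Hoxa5 signal itself was not lower. It was 294, 338.9 and 346.9 on the Luc arrays, 287.3, 468.3 and 475.6 with hairpin 94, and 420.8, 316.6 and 367.3 with hairpin 97, so the groups overlapped. The geometric mean with knockdown was 1.17 times that of Luc. After background correction and before any scaling the change was 0.31 on the log2 scale, where the median change of the 6891 probes detected on all 9 arrays was 1.28, and 2.42% of those probes had a lower change than Hoxa5. Scaled to the median of all probes, which left the brightness difference in place, the value was 0.30 (limma adjusted p = 0.2077). Hoxa5 was therefore lower relative to other probes of the same arrays, not in signal.

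Hoxa7, a HOXA gene of the same cluster, had normalized log2 values of 8.24, 7.93 and 8.61 with Luc, 8.98, 8.23 and 8.56 with hairpin 94, and 7.61, 8.23 and 8.0 with hairpin 97. The groups overlapped, and the change was 0.01 (95% interval -0.45 to 0.46, limma adjusted p = 0.9846). Its signal was 196.4 to 277.4 on the Luc arrays and 381.1 to 563 on the knockdown arrays, 2.08 times as high in the geometric mean. After background correction and before scaling the change was 1.47. The median over the 6891 probes detected on all arrays was 1.28, and 62.3% of them had a lower change.

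Hoxa9, the HOXA gene most closely tied to MLL leukemia, was detected on all 9 arrays by 2 of its 3 probes. The brighter of them (ILMN_2645155) gave 7.68, 7.66 and 7.83 with Luc, 7.71, 7.26 and 7.06 with hairpin 94, and 7.61, 7.78 and 7.87 with hairpin 97. Apart from hairpin 94 replicates 2 and 3, every array lay between 7.61 and 7.87. The change was -0.18 (95% interval -0.51 to 0.15, limma adjusted p = 0.3636). The other probe (ILMN_1258462) gave -0.29 (95% interval -0.77 to 0.18). Its values ran from 6.87 to 7.62 with Luc and from 6.54 to 7.45 with knockdown, and overlapped. The remaining Hoxa9 probe was detected on 0 of the 9 arrays, with signals of 85.65 to 101.3.

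Within each array Hoxa5 could be set against Hoxa7 and Hoxa9 without the scale of the array. The log2 value of Hoxa5 minus that of Hoxa7 was 0.40 to 1.17 on the Luc arrays and -1.24 to 0.18 on the knockdown arrays. The mean difference shifted by -1.13, and by -1.15 before scaling. Against the brighter Hoxa9 probe it shifted by -0.94, from 1.18 to 1.44 with Luc to 0.01 to 1.21 with knockdown, and against the other Hoxa9 probe by -0.83. The first pair did not overlap between Luc and knockdown. The pair with the brighter Hoxa9 probe overlapped, but not before scaling (shift -0.97), and the last pair overlapped both ways. These pairs were formed after the fall of Hoxa5 had been seen and are given with no test.

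Hoxa6 and Hoxa10, further HOXA genes of the cluster, had no probe above the filter. The Hoxa6 probe was detected on 1 array, hairpin 97 replicate 6, and the 2 Hoxa10 probes on none, with detection p of 0.07372 to 0.9241. No fold change is given for them.

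**Figure D2:**
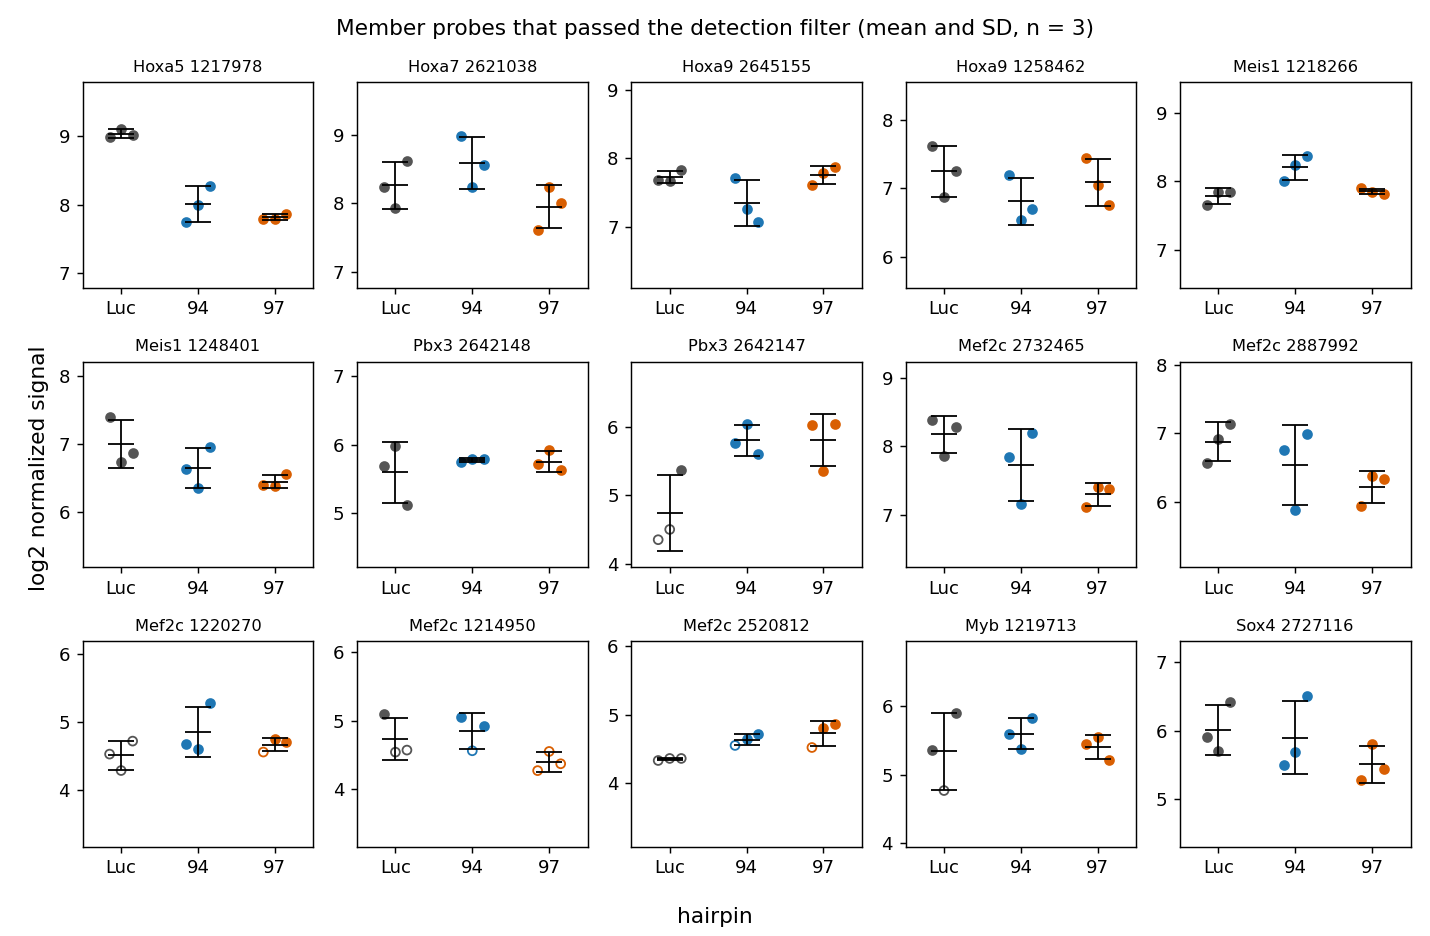
Log2 normalized signal (vertical axis, a span of 3 units in each panel) of the 15 tested probes for the Luc control, hairpin 94 and hairpin 97. Points are arrays (open where the probe was not detected), and bars give the mean and SD of 3 arrays. Hoxa5 sits near 9 with Luc and near 8 with both hairpins, while the Luc and knockdown points of Hoxa7 and Hoxa9 overlap.

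Meis1, the DNA-binding partner of HOXA9, gave different changes from its 2 detected probes. The probe of the RefSeq mRNA (ILMN_1218266) had normalized log2 values of 7.65, 7.85 and 7.85 with Luc, 8.0, 8.24 and 8.37 with hairpin 94, and 7.90, 7.84 and 7.82 with hairpin 97. The hairpin 94 arrays lay above all Luc arrays, and the hairpin 97 arrays overlapped them. With hairpin 94 it rose by 0.41 (SE 0.14, limma adjusted p = 0.04418), with hairpin 97 the change was 0.07 (95% interval -0.24 to 0.38), and in the mean of both it was 0.24 (limma adjusted p = 0.1363). The call for hairpin 94 ended in each of several alternatives, among them the fits without Luc replicate 1 (0.34), Luc replicate 2 (0.45), hairpin 94 replicate 2 (0.40) or hairpin 94 replicate 3 (0.33), and those without any 1 hairpin 97 array (0.41 each). With the replicate number as a block the value was 0.41 (limma adjusted p = 0.1099).

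The probe made on another Meis1 cDNA (ILMN_1248401) gave 7.40, 6.74 and 6.87 with Luc, 6.64, 6.36 and 6.95 with hairpin 94, and 6.40, 6.39 and 6.56 with hairpin 97. The hairpin 97 arrays lay below all Luc arrays, and the hairpin 94 arrays overlapped them. The change in the mean of both hairpins was -0.45 (95% interval -0.84 to -0.07, limma adjusted p = 0.05908), and it passed in alternatives, among them no background correction (-0.25) and without Luc replicate 2 (-0.58). Leaving out 1 array gave -0.58 to -0.26, the last without Luc replicate 1. Within the same array the second probe minus the first was -1.11 to -0.25 with Luc and -1.87 to -1.26 with knockdown. This shift of -0.69 had a two-sided exact permutation p of 0.0119, the smallest that 84 splits allow, and 0.02083 after Benjamini-Hochberg adjustment over 7 pairs of probes of 1 gene. Before scaling it was -0.74 (exact permutation p 0.04165 after the same adjustment). Pairs with Mef2c probes near the detection floor are among the 7, and their small p-values lowered both adjusted values. All 7 pairs were formed after the data were seen, so their p-values are a description only. The remaining Meis1 probe was detected on 0 arrays, with signals of 88.33 to 103.5.

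Pbx3, a PBX protein that binds with HOXA9 and MEIS1, was dim on all arrays. Its probe ILMN_2642147 had normalized log2 values of 4.35, 4.50 and 5.37 with Luc, 5.76, 6.04 and 5.60 with hairpin 94, and 6.02, 5.36 and 6.04 with hairpin 97. It was detected on Luc replicate 3 and on all 6 knockdown arrays. Luc replicate 3 lay just above the lowest knockdown array, and the other Luc arrays lay below all of them. Its fitted change was 1.06 (SE 0.239, limma adjusted p = 0.00552), with 1.06 for hairpin 94 and 1.07 for hairpin 97. Since the probe was undetected on Luc replicates 1 and 2, these are fitted values and not measured folds. The size depended on the processing, with 0.42 under cyclic loess and 0.22 with arrays scaled to the probes seen on every array, neither past the threshold. Its deposited signal was 100.4, 103.7 and 105.9 with Luc and 122.2 to 173 with knockdown, with no overlap. The knockdown arrays were brighter in general. After background correction and before scaling the change of this probe was 1.53. The median over the 6891 probes detected on all arrays was 1.28, and 66.2% of them had a lower change.

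The second Pbx3 probe (ILMN_2642148), detected on all 9 arrays, gave 5.69, 5.99 and 5.12 with Luc and 5.63 to 5.92 with knockdown. The Luc arrays lay on both sides of the knockdown arrays, and the change was 0.17 (95% interval -0.21 to 0.55, limma adjusted p = 0.4505). The difference between these probes within an array shifted by 0.89, and by 0.39 before scaling, with two-sided exact permutation p of 0.05952 and 0.2143 (0.08333 and 0.30 after adjustment over the 7 pairs). The Mef2c pairs near the floor lowered these adjusted values too. The remaining Pbx3 probe was detected on 0 arrays (90.69 to 106.6).

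Mef2c, a MADS-box factor of lymphoid and myeloid progenitors that MLL fusions activate, had 5 tested probes. The brightest (ILMN_2732465) had normalized log2 values of 8.38, 7.86 and 8.28 with Luc, 7.85, 7.15 and 8.19 with hairpin 94, and 7.11, 7.41 and 7.38 with hairpin 97. The hairpin 97 arrays lay below all Luc arrays, while hairpin 94 replicate 3 lay among them. It fell by 0.66 in the mean of both hairpins (SE 0.215, limma adjusted p = 0.03209), by 0.87 with hairpin 97 (limma adjusted p = 0.02129), and with hairpin 94 the change was -0.44 (95% interval -0.99 to 0.10). The call in the mean of both ended without Luc replicate 1 (-0.55), Luc replicate 3 (-0.60), hairpin 97 replicate 4 (-0.61) or hairpin 97 replicate 6 (-0.68), and the call for hairpin 97 ended without hairpin 97 replicate 4 (-0.78) or 6 (-0.91). As for Hoxa5, the deposited signal was not lower, at 190.5 to 235 with Luc and 263.4 to 456.3 with knockdown.

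The next probe (ILMN_2887992) gave 6.57, 6.92 and 7.14 with Luc, 6.75, 5.88 and 6.99 with hairpin 94, and 5.94, 6.37 and 6.33 with hairpin 97. It followed the brightest probe, with a change of -0.50 that did not pass (limma adjusted p = 0.1081). Their within-array difference shifted by 0.15 (exact permutation p 0.5119, and 0.5972 after adjustment over the 7 pairs).

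The other 3 Mef2c probes lay near the detection floor. ILMN_1220270 and ILMN_2520812 were seen on no Luc array and, out of 6 with knockdown, on 5 and 4, while ILMN_1214950 was seen on 1 Luc array and 2 knockdown arrays. ILMN_2520812, at 4.33 to 4.36 with Luc and 4.52 to 4.86 with knockdown, had a limma adjusted p of 0.04413, but it met the detection filter through the knockdown arrays alone, and no fold is given, since its knockdown mean lay below the lowest detected signal of the Luc arrays. It did not pass in any fit that left out 1 array except the one without hairpin 97 replicate 4 (limma adjusted p 0.05225 to 0.09245 in the others). Against the brightest probe, the 3 within-array differences shifted by 0.55 to 0.99, and by -0.72 to -0.42 before scaling. With Luc these probes were at or near the floor, so the shifts do not measure a difference between probes. They were among the 7 pairs tested (exact permutation p 0.0119 each) and are not read as a result. Their small p-values lowered the adjusted values of the other pairs.

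Myb, a factor that progenitors need to proliferate, was seen by 1 of its 3 probes. ILMN_1219713 had normalized log2 values of 5.36, 4.77 and 5.90 with Luc, 5.60, 5.37 and 5.83 with hairpin 94, and 5.45, 5.55 and 5.22 with hairpin 97. All knockdown arrays lay within the Luc range. The change was 0.16 (95% interval -0.32 to 0.64, limma adjusted p = 0.5754). Its signal was 107.3 to 112.6 with Luc and 119.6 to 149.2 with knockdown. After background correction and before scaling the change was 0.91. The median over the 6891 probes detected on all arrays was 1.28, and 24.5% of them had a lower change. The other Myb probes were detected on 2 arrays and on 1 array, all with knockdown.

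Sox4, an SRY-related factor that promotes self-renewal in leukemia, had 1 tested probe (ILMN_2727116). It gave 5.91, 5.71 and 6.42 with Luc, 5.50, 5.69 and 6.50 with hairpin 94, and 5.28, 5.80 and 5.44 with hairpin 97. The groups overlapped, and the change was -0.31 (95% interval -0.83 to 0.21, limma adjusted p = 0.3143). Its other probe was detected on 0 arrays, with signals of 86.18 to 106.6.

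Taken by hairpin, 3 of the 15 probes (20%) were called with hairpin 94, where 32.4% of all probes passed (20% higher and 12.3% lower). Meis1 ILMN_1218266 and Pbx3 ILMN_2642147 were higher and Hoxa5 was lower. The other tested Meis1 and Pbx3 probes gave -0.35 and 0.19 and did not pass. With hairpin 97 also 3 probes (20%) were called, where 32.9% of all probes passed (20.6% higher and 12.3% lower). Pbx3 ILMN_2642147 was higher, and Hoxa5 and Mef2c ILMN_2732465 were lower. The Pbx3 probe was detected on 1 Luc array. The medians of the 15 probes were 0.11 and -0.16, and those of all probes 0.10 and 0.11.

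**Figure D3:**
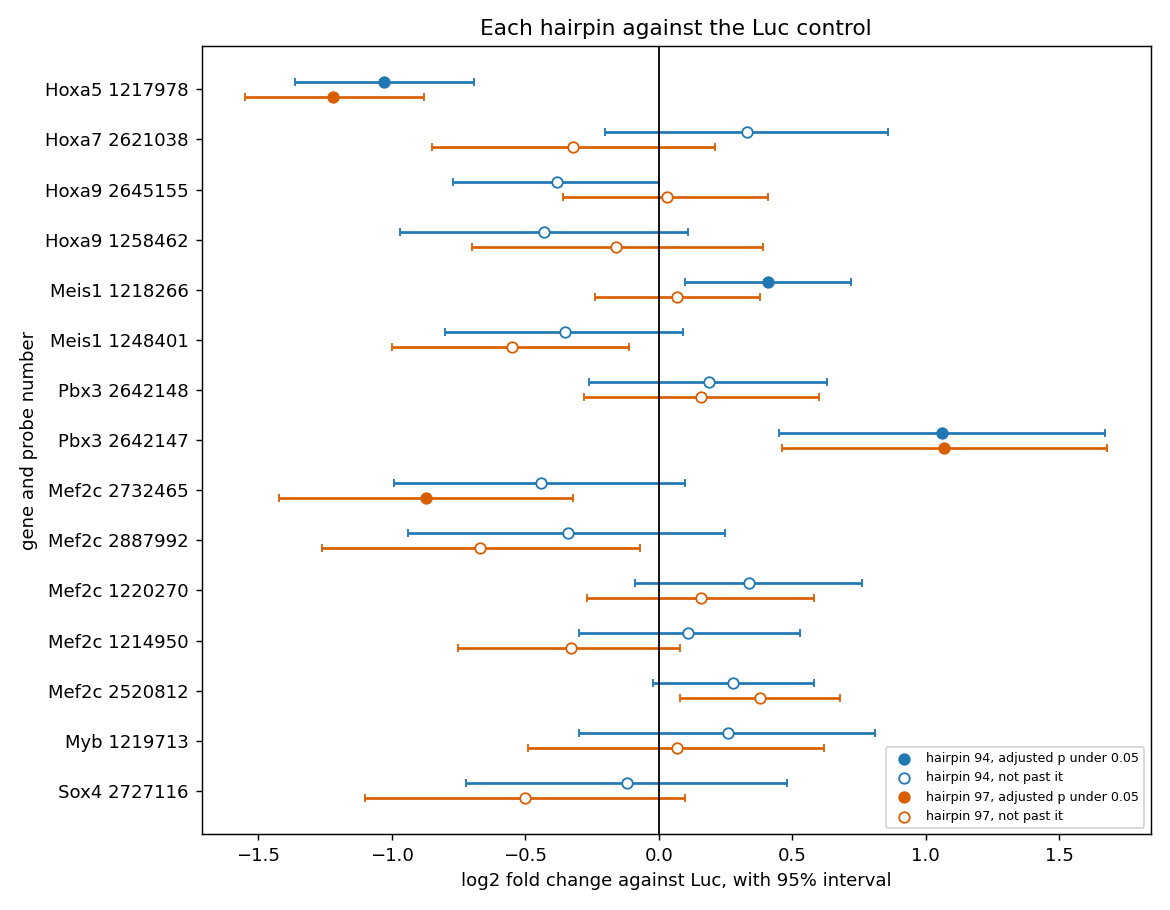
Log2 fold change of the 15 tested probes for hairpin 94 and hairpin 97 against Luc (horizontal axis, with the 95% interval of the limma fit), filled where the adjusted p was under 0.05. Hoxa5 lies at -1.03 and -1.22 and one Pbx3 probe at 1.06 and 1.07. Both hairpins were compared with the same Luc arrays.

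The hairpins were then compared with each other, between arrays of about equal brightness. No member probe passed (0 of 15 by limma, with 4 at an unadjusted p under 0.05), where 0.139% of all probes did (0.0293% higher and 0.11% lower with hairpin 97). The counts were also 0 with an intensity trend and with only these 6 arrays in the fit. Hoxa7 had values of 7.61 to 8.23 with hairpin 97 and 8.23 to 8.98 with hairpin 94, a difference of -0.65 that did not pass (95% interval -1.17 to -0.12, limma adjusted p = 0.4608). The Meis1 probe ILMN_1218266 gave -0.35 (95% interval -0.65 to -0.04) and the brighter Hoxa9 probe 0.41 (95% interval 0.03 to 0.79). For Hoxa5 the difference was -0.19 (95% interval -0.52 to 0.15) and for the brightest Mef2c probe -0.43 (95% interval -0.98 to 0.12).

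Among the myeloid marker lists, neutrophil granule genes were mostly called higher with knockdown, while the others gave mixed calls or none. Of 14 tested probes of neutrophil granule genes (9 tested genes of 11), 13 were higher with knockdown and 0 lower by limma, where 25% of all probes were higher, with a median of 0.97, for example Camp (2.85, limma adjusted p = 0.0001267) and S100a9 (1.98, limma adjusted p = 7.107e-05). The list's summed level, each gene by its brightest probe in linear normalized units, was 5504 to 6082 with Luc, 11120 to 11240 with hairpin 94 and 10750 to 12440 with hairpin 97. The probes of Ltf and Chil3 and 1 of Fcnb were detected on 0 Luc arrays, so they met the filter through the knockdown arrays alone. The brightest Mmp8 probe was detected on none of the 9. In the marker lists below too, a gene not detected on any array is judged by its brightest probe. The list of mast cell, basophil and eosinophil genes (5 genes, 4 tested probes, 2 higher and 2 lower) summed to 374.6 to 449.6, 281 to 323 and 186.9 to 233.5, with Mcpt8 and Ms4a2 not detected on any array. Its genes differed in direction. Prg2 (-1.18) and Epx (-0.65) were lower, while both Cpa3 probes, undetected on the Luc arrays, were called higher. The T and NK cell list (5 genes) summed to 780.4 to 817.3, 617 to 746.1 and 375.8 to 460.7, with 1 tested probe, Nkg7, which was lower, and with Cd3d, Cd3g and Klrb1c not detected on any array. The part of these cells in the results was not tested.

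The other marker lists had at most 1 call each. Monocyte and macrophage genes (7 genes, 4 tested probes, 0 called) summed to 207.7 to 248.7 with Luc and 222.2 to 254.3 with knockdown. The erythroid and megakaryocyte list (6 genes) had 0 tested probes, with Klf1, Alas2 and Pf4 not detected on any array. The B cell list (3 genes) had 2 tested probes, both of Cd79b and neither called, and summed to 77.63 to 127.3 with Luc, 135 to 165.8 with hairpin 94, which did not overlap Luc, and 101.6 to 128.6 with hairpin 97, with Ms4a1 not detected on any array. Stroma and endothelium genes (6 genes, 4 tested probes, 1 higher) summed to 171 to 198.9 with Luc, 182.8 to 190.3 with hairpin 94 and 155.4 to 156 with hairpin 97, the last below all Luc arrays.

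Calls among related genes outside the 10 members are given by list, where 40.2% of all tested probes passed, 25% higher and 15.2% lower. Of the other HOXA genes, Hoxa2, Hoxa4 and Hoxa13 had 1 tested probe each and 0 passed by limma, with a median of -0.37 (these genes are named outside the naming rule, after their values were seen). None of the 7 probes of 4 HOXB genes passed the detection filter. Among the other PBX, MEIS and related cofactors, 4 probes of 2 genes were tested and 1 was called higher, that of Pbx2. It was undetected with Luc and met the filter through the knockdown arrays alone, so the filter favoured this call. On the quantile normalized scale it was at least 1.44-fold higher with knockdown, counted from the lowest detected signal of the Luc arrays. The second Pbx2 probe gave 0.28 and did not pass.

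Of 18 further genes of MLL-AF9 self-renewal, 9 were tested by 12 probes, 2 higher and 2 lower, with a median of -0.11. This share of calls was below the 40.2% of all probes. Lmo2, a bridging factor of blood progenitors, rose by 0.48 (SE 0.117, limma adjusted p = 0.008673). One probe of Eya1, a transcriptional cofactor and phosphatase, fell by 0.80 (ILMN_2638487, limma adjusted p = 0.001526). Its other probes gave 0.17 (ILMN_2430513, not passing) and a call as higher for ILMN_2686435, which was undetected on all Luc arrays and has no bound. One probe of Bcl2, the inhibitor of apoptosis, was called lower (limma adjusted p = 0.03743), but it was detected on 2 Luc arrays and 1 knockdown array, so no fold is given, and the second probe gave 0.09.

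Genes of the protein complex around MLL fusions gave 1 higher and 4 lower calls among 12 probes of 9 genes, a share near the 40.2% of all probes, with a median of -0.04. Aff4, a scaffold of the super elongation complex, fell by 0.89 (SE 0.187, limma adjusted p = 0.003923). Kmt2a, the gene of MLL itself, fell by 0.51 (limma adjusted p = 0.02234), and Cdk9, the kinase of that complex, by 0.48 (limma adjusted p = 0.01572). One Aff1 probe rose by 0.62 (limma adjusted p = 0.01259, seen on 1 Luc array) and the other gave -0.01. Of the relatives of MEF2C, MYB and SOX4, 3 of 4 probes were higher and 0 lower, where 25% of all probes were higher, with a median of 0.52. These were Mef2b (0.52, limma adjusted p = 0.007061) and both probes of Mybl2, a cell cycle factor of the MYB family. The brighter Mybl2 probe gave 0.52 (limma adjusted p = 0.005782). The other was undetected on the Luc arrays and met the filter through the knockdown arrays alone, with a bound of at least 1.31-fold on the normalized scale.

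The probes whose normalized values ran most like those of the members over the 9 arrays were found by Pearson correlation among all tested probes with 1 gene symbol. For Hoxa5 they belonged to Heatr1 (0.9934), Pla2g12a (0.9883) and Eef1aknmt (0.9883). For the brighter Hoxa9 probe they were Mrpl43 (0.9319), Pole3 (0.9211) and Mrto4 (0.9182), for Meis1 (ILMN_1218266) Trib3 (0.9734), Chrnb1 (0.9724) and Bcs1l (0.9526), and for Myb Bub3 (0.9499), Psmb10 (0.934) and Chd8 (0.9254). These are the highest of very many correlations over 9 arrays that share groups and brightness, and are given as a description only.

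**Figure D4:**
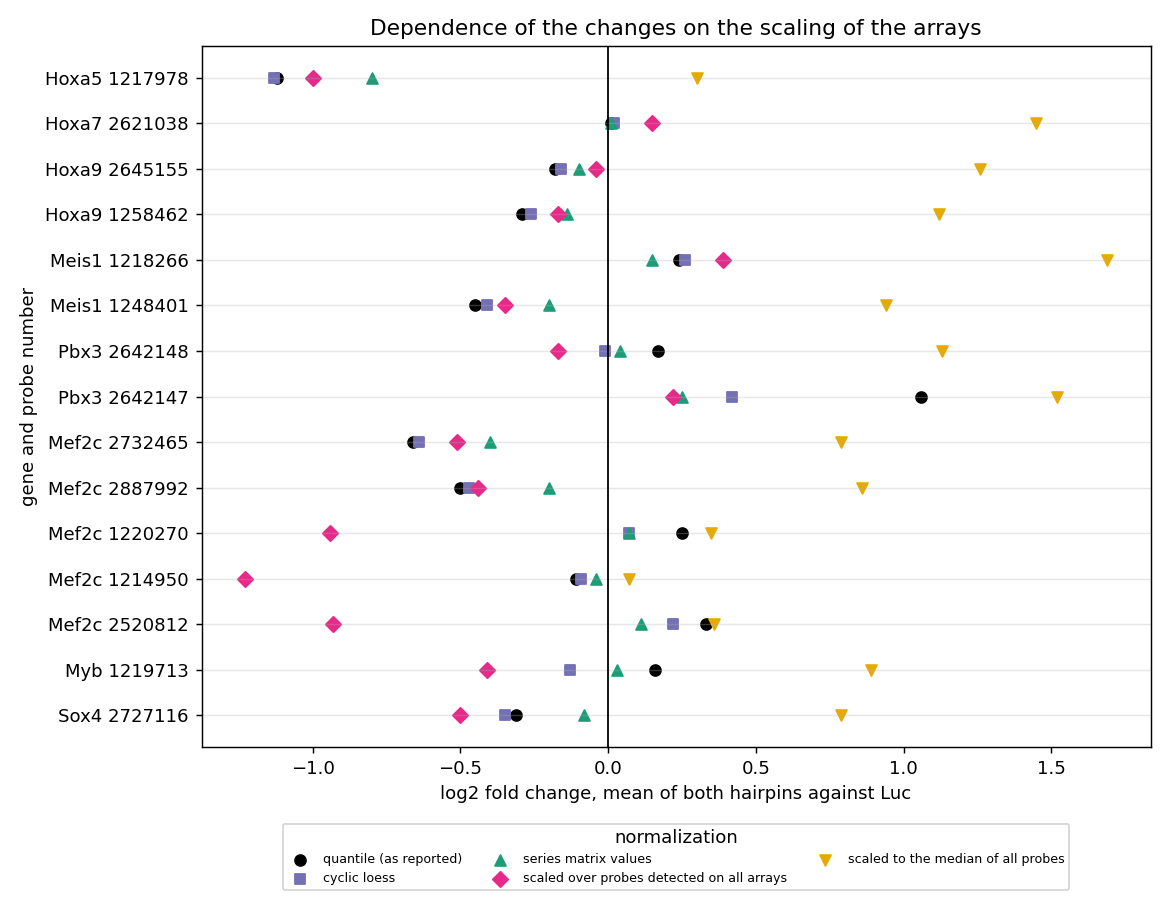
Log2 fold change of the 15 tested probes in the mean of both hairpins against Luc (horizontal axis) under 5 normalizations. Hoxa5 lies between -1.13 and -0.80 under 4 of them and at 0.30 when arrays are scaled to the median of all probes, which moves nearly every probe to the right.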

How the data were processed

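Gene expression was measured on 9 Illumina bead arrays. The authors deposited the average bead intensity of each probe, with background left in and no common scale, and for each such value a detection p-value, per the file headers. They also deposited log2 values that share 1 distribution (median 6.612 on every array), as after quantile normalization. Their scale follows from the values, and how they were made is not given in the sources used here. No negative control probes were used beyond what the detection p-values hold.

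Here limma 3.58.1 in R 4.3.3 corrected background from the detection p-values and quantile normalized the intensities (neqc, offset 16). Probes with detection p under 0.05 on at least 3 of 9 arrays were kept, 13641 in all. lmFit gave 1 mean per group over all 9 arrays, and eBayes with Benjamini-Hochberg adjustment over all kept probes was used at 0.05. A separate run tested the fit on simulated data. Of 34885 probes with 1 symbol, 34807 matched RefSeq. Depth has no counterpart on arrays, and their number and the signal over background limit precision.

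A probe detected on no array of a group has only a bound there: the mean of the brighter group against, per array, the lowest signal among detected probes or its own signal if higher. The members and lists were chosen with earlier results of these data known. Every member probe is named. Of each related list, the 4 genes with the largest changes past the threshold are named, with all their tested probes. The closing section gives the effect of other background corrections, scalings, filters, a brightness covariate, other estimates of spread, a replicate block and leaving out each array. Replicate numbers 1 to 3 recur in Luc and hairpin 94. Correlations of deviations were 0.06775, 0.04861 and 0.1411 between same-numbered arrays and -0.1302 to 0.0756 between the others. These values do not settle whether the arrays are paired, and the labels do not say so. The main fit did not pair them, and the replicate block is given as an alternative. Differences between probes of 1 gene within an array were added after the data were seen.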

Additional observations from a re-analysis of the deposited data

Results flagged for a closer look

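Of the 9 member probes that were left out of the tests, 2 had a signal above all Luc arrays on single arrays. The Hoxa6 probe ILMN_2724039 had a signal of 114 on hairpin 97 replicate 6 (detection p 0), where the highest Luc array had 102.5. The Myb probe ILMN_2752817 had a signal of 110.9 on hairpin 97 replicate 4 (detection p 0.002137), where the highest Luc array had 105.9. Over the 81 measurements of these 9 probes, 4 were detected, 0 with Luc and 4 with knockdown, and 5% of 81 would be 4.05.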

How the results depend on the processing

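The number of member probes called depended most on scaling and brightness. In the mean of both hairpins (4 probes called) it was 2 (both lower) under cyclic loess, 8 (1 higher, 7 lower) with arrays scaled over the probes detected on every array, 11 (all higher) with scaling over the median of all probes, 2 (both lower) with only the brightest probe of each gene and 0 with each array's count of detected probes as covariate, where no probe of the array passed either in limma (1390 of 13641 at an unadjusted p under 0.05). In the same order 28.9%, 68.2%, 73%, 43.2% and 0% of all tested probes passed. For hairpin 94 (3 called), scaling over the probes detected on every array gave 5 and scaling over the median gave 11. The covariate gave 0, and 62.6%, 68.6% and 0% of all probes passed. For hairpin 97 (3 called) these settings gave 7, 11 and 0, where 63.8%, 69.1% and 0% of all probes passed. Leaving out 1 array gave 2 to 4 calls in the mean of both (2 without Luc replicate 1, Luc replicate 3 or hairpin 97 replicate 6), 1 to 4 for hairpin 94 (1 without hairpin 94 replicate 2), 1 to 4 for hairpin 97 (1 without hairpin 97 replicate 6) and 0 between the hairpins. Over all probes, leaving out 1 array gave calls for 33.5% to 40.5% in the mean of both and 23.4% to 35% for hairpin 94. It gave 22.2% to 34.6% for hairpin 97 and at most 0.315% between the hairpins. In the mean of both hairpins 5485 of all probes were called, against 9309 and 9958 under the 2 scalings. Scaling over the median of all probes turned negative values positive. In the mean of both hairpins these were Hoxa5 at 0.30, Hoxa9 at 1.26 and 1.12, Meis1 ILMN_1248401 at 0.94, Mef2c at 0.79 and 0.86, and Sox4 at 0.79. With hairpin 94 they were Hoxa5 at 0.38, Hoxa9 at 1.04 and 0.96, Meis1 at 1.03, Mef2c at 0.98 and 1.01, and Sox4 at 1.01. With hairpin 97 they were Hoxa5 at 0.22, Hoxa7 at 1.14, Hoxa9 at 1.28, Meis1 at 0.86, Mef2c at 0.59 and 0.71, and Sox4 at 0.58. Scaling over the probes detected on every array turned dim probes negative, as fitted values that are no measured folds where a probe was undetected with Luc: Mef2c ILMN_1220270 and ILMN_2520812 at -0.94 and -0.93 and Myb at -0.41 in the mean of both hairpins, Mef2c at -0.82, -0.97 and -0.96 with hairpin 94, and Mef2c at -1.07 and -0.90 and Myb at -0.52 with hairpin 97. With the covariate, Pbx3 ILMN_2642147 was at -0.58, -0.58 and -0.59 in the mean and for each hairpin, and Mef2c ILMN_2732465 at 0.91 in the mean and 0.71 with hairpin 97. The shifts of the dim Mef2c probes against the brightest within an array were -0.44, -0.72 and -0.42 before scaling. The causes of these differences were not tested. Hoxa5 passed in 19 of 21 alternatives in the mean of both hairpins, with exceptions of 0.30 (median scaling) and -1.22 (covariate, limma adjusted p = 0.4468), and Pbx3 ILMN_2642147 in 16 of 19. Mef2c ILMN_2732465 passed as lower in 14 of 21, passed as higher under median scaling, and lost its call with no filter on dim probes (-0.66, limma adjusted p = 0.1115). With the replicate number as a block, 2 member probes were called for hairpin 94 in place of 3, where 18.9% of all probes passed. Meis1 ILMN_1218266 at 0.41 no longer passed (limma adjusted p = 0.1099). Low signal over background limits the dim Mef2c, Pbx3 and Myb probes and left 9 member probes without a test.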
